A study of Homo sapiens with 4 samples.

Results

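The lysosome was followed here through 35 genes that encode its soluble hydrolases, its soluble lipid-binding proteins and the proteins of its limiting membrane. The genes were chosen by their role and found by symbol in the expression table, where each of the 35 had a single entry among the 48162 genes listed; 34 of them, among 12080 genes in all, reached the mean level of 1 FPKM (fragments per kilobase of gene length, scaled to the fragment total of the library) required for testing, and HEXA did not. The libraries were made from MDA-MB-231, an established line of triple-negative human breast cancer cells, kept in serum-containing medium and given either vehicle control (2 libraries) or MGH-CP1 (2 libraries) for 24 h. MGH-CP1 is a reversible small-molecule inhibitor of the autopalmitoylation of TEAD, the DNA-binding partner of the co-activators YAP and TAZ. The dose was 10 µM by the sample labels, whereas the methods print the same figure in mM. A single cell line was used, and nothing states that the libraries of a group came from separate cultures, so the p-values measure the spread between these libraries, which may be technical.

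Lysosomal hydrolases are made in the endoplasmic reticulum, tagged with mannose 6-phosphate in the Golgi apparatus and carried by receptors to the acidic lumen, where each removes a particular sugar, sulfate, lipid or peptide from material delivered by endocytosis and autophagy. Heavily glycosylated membrane proteins such as LAMP1 and LAMP2 line the limiting membrane, and transporters and channels return the products to the cytosol. Many of these genes carry an E-box-like element in the promoter, the CLEAR element, through which the MiT/TFE factors TFEB, TFE3 and MITF drive their transcription. Inherited loss of nearly any single enzyme leads to a lysosomal storage disease.

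The libraries held 25455533 and 25508824 fragments on genes after vehicle and 17997221 and 17577930 after MGH-CP1, so MGH-CP1 values rest on fewer fragments. Genes of the mitochondrial genome took 0.418% to 0.447% of fragments in the vehicle libraries and 1.53% to 1.57% in the MGH-CP1 libraries. When library totals were recomputed without those genes, the number of members called higher was again 20, and the median log2 fold change of the 34 tested was 0.30. The 6 mesenchymal-like markers of the line were all present, and their sum was 1535 and 1534 FPKM after vehicle and 1276 and 1313 FPKM after MGH-CP1, with AXL, CAV1 and EGFR called lower at -0.76, -0.49 and -0.46. Of 6 luminal markers, ESR1, PGR and FOXA1 were at no more than 0.0275 FPKM and CDH1 at no more than 0.638 FPKM, while EPCAM (12.4 to 16.4 FPKM) and GATA3 (4.17 to 5.65 FPKM) were expressed. A list of 7 leukocyte and macrophage markers summed to 3.32 to 3.94 FPKM after vehicle and 7.25 to 8.15 FPKM after MGH-CP1, with CD14 and CSF1R called higher. The pan-leukocyte marker PTPRC was at or below 0.0321 FPKM and CD3E was listed at 0 in every library, and the part of these markers in the results was not tested. The TEAD-YAP targets CYR61, CTGF and ANKRD1 fell by 0.75, 0.66 and 0.66 on the log2 scale.

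Most lysosomal members rose after MGH-CP1, and most rises were modest. Of the 34 members tested, 20 were called higher (58.8%) and 2 lower (5.88%) at a limma adjusted p under 0.05, against 27.1% of all genes tested called higher and 23.8% called lower. Fold changes are differences in log2(FPKM + 1) between MGH-CP1 and vehicle; they ran from -0.30 for PPT1 to 1.22 for ARSA, with a median of 0.28 against 0.01 over all genes tested, and 31 of the 34 lay above 0. In 26 members both MGH-CP1 libraries lay above both vehicle libraries, as did 39.8% of all genes, and in 3 members both lay below, as did 37.4% of all genes. Expression summed over the 35 members was 1305 and 1320 FPKM after vehicle and 1706 and 1634 FPKM after MGH-CP1, a ratio of 1.27. PSAP, SMPD1 and SCARB2 belong to a set of genes that the study reported as rising in common. Its choice used these libraries together with public datasets of YAP/TAZ knockdown in several cell lines. The rise of these 3 members here is therefore not independent evidence. Among the other 31 members tested, 17 were called higher and the median was 0.21. With 2 libraries a group, an exact permutation test of any single gene cannot go below p = 0.333, so the calls rest on limma's pooling of the spread over genes.

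**Figure D1:**
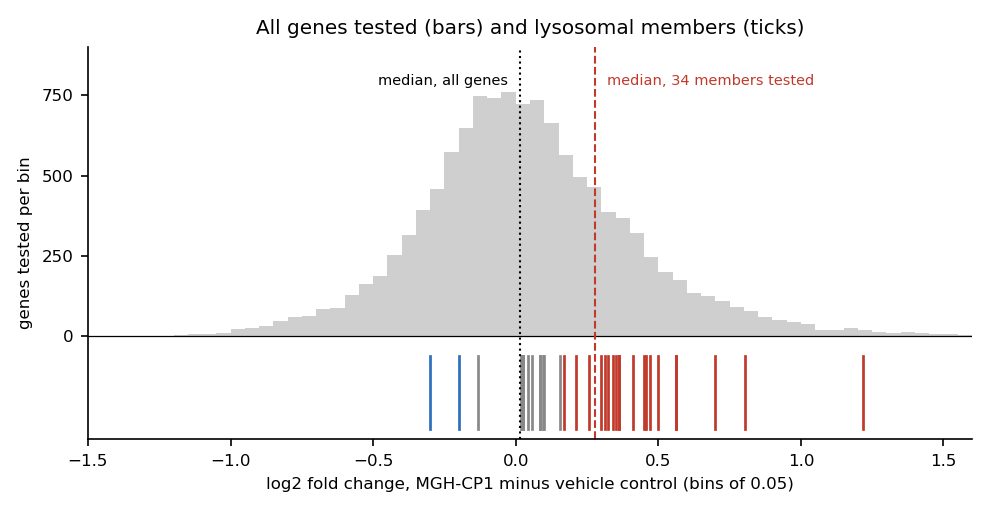
Number of genes tested in each bin of log2 fold change (MGH-CP1 minus vehicle control), with a tick below the axis for each of the 34 lysosomal members tested (red called higher, blue called lower, grey not called). The member median (dashed line, 0.28) lies to the right of the median of all genes (dotted line, 0.01), and the tick farthest to the right is ARSA at 1.22; genes outside -1.5 to 1.6 are not drawn.

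To show what the promoters of these genes share, the RefSeq windows from 250 bases before to 50 bases after the start site (GRCh38.p14, the first window listed for each symbol) were searched on both strands for CACGTG, the E-box core, and for the longer forms TCACGTG and TCACGTGA, which contain it. Windows were matched for 27 of the 35 members; ARSA, HEXA, MANBA, NAGLU, PSAP, SGSH, ASAH1 and LAMP2 had none. The 8-base form stood in 5 of the 27 windows (18.5%) and in 1.04% of the windows of 27305 symbols, and the 6-base core in 7 of 27 (25.9%) and 7.43%. The 27305 symbols are all those with a full window and were not limited to the genes tested here. The element was first described from lysosomal promoters, so its presence in these genes is no finding of the present libraries. Among the 14 matched members called higher, 3 held the 8-base form, and among the 13 others, 2 held it. The stretches upstream of the start around the longest form present are shown for the 6 members with a 7-base or 8-base form, since these 6 include members that rose, that did not pass the test and that fell; capitals mark the form, and each is written 5′ to 3′ on the strand of the gene.
GAA (chr17:80101464-80101580, plus strand): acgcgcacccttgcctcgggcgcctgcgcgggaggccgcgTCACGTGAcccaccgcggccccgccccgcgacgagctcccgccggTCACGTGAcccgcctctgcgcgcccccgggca
GALNS (chr16:88857075-88857162, minus strand): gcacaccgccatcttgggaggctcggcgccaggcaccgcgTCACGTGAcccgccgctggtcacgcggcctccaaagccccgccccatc
NEU1 (chr6:31862902-31862988, minus strand): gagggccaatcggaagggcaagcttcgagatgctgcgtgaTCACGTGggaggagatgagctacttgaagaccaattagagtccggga
SCPEP1 (chr17:56978063-56978130, plus strand): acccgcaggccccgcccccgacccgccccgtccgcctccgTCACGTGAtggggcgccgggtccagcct
LAMP1 (chr13:113297170-113297238, plus strand): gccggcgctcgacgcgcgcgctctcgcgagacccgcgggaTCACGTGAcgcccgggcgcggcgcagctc
MCOLN1 (chr19:7522542-7522623, plus strand): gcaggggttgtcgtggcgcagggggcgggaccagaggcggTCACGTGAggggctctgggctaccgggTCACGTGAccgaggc

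GAA and MCOLN1 each carried the 8-base form at 2 places, with its first base at -77 and -32 in GAA and at -42 and -15 in MCOLN1, counted back from the start site. GAA rose by 0.46 and MCOLN1 fell by 0.20 on the log2 scale. LAMP1, which did not pass the test, held it at -29 and again across the start site, besides 4 copies of the core farther upstream. SCPEP1 held it at -28 and GALNS at -175, while NEU1 held only the 7-base form at -127 and CD63 only the core at -180. When every listed window of a symbol was searched, a step added after the values were seen, ARSB was added for the core and the 7-base form, and no member for the 8-base form. A match is a run of letters and was not tested as a binding site.

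**Figure D2:**
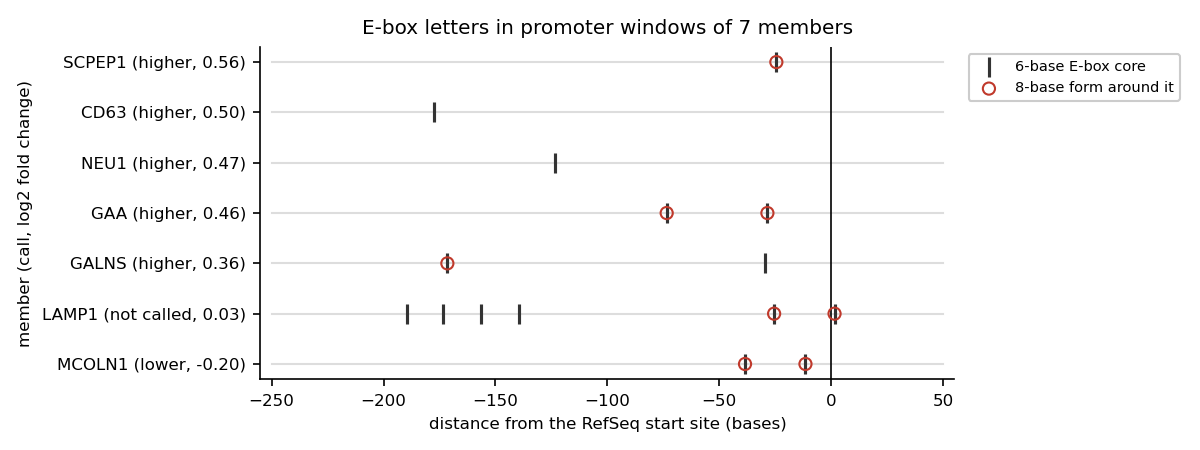
Position of the 6-base E-box core (vertical marks) and of the 8-base form around it (circles) in the promoter windows of 7 members, by distance in bases from the RefSeq start site; each gene is given with its call and log2 fold change. Members that carry the 8-base form range from 0.56 (SCPEP1) to -0.20 (MCOLN1).

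Among glycosidases, which cut sugars from glycoproteins, glycolipids and glycosaminoglycans, 6 of the 11 tested rose and none was called lower, with a class median of 0.30. Beside the counts of this and the later classes and groupings stand 27.1% of all genes tested called higher and 23.8% called lower. The largest rise was that of IDUA, the α-L-iduronidase that acts on heparan and dermatan sulfate, which read 5.99 and 5.97 FPKM after vehicle and 11.2 and 11.2 FPKM after MGH-CP1. The replicates of IDUA were nearly level and the groups stood well apart, at a log2 fold change of 0.80 ± 0.07 (SE, n = 2 a group; limma adjusted p = 6.77e-05). FUCA1, the fucosidase of glycoprotein breakdown, read 28.0 and 25.6 FPKM after vehicle and 45.6 and 42.5 FPKM after MGH-CP1, a rise of 0.70 ± 0.06 (limma adjusted p = 9.61e-05). The FUCA1 groups did not overlap, and its lower MGH-CP1 library was far above its higher vehicle library.

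NEU1, the lysosomal sialidase, read 16.5 and 17.1 FPKM after vehicle and 24.3 and 23.1 FPKM after MGH-CP1. GAA, the acid α-glucosidase that degrades glycogen, read 14.4 and 14.7 FPKM and then 20.3 and 20.4 FPKM. Both rose to a like extent, by 0.47 and 0.46 on the log2 scale. NAGLU, an N-acetylglucosaminidase of heparan sulfate breakdown, rose by 0.36, from a mean of 11.6 to 15.3 FPKM. MAN2B1, the lysosomal α-mannosidase, rose by 0.30, and its replicates differed by less than 0.1 FPKM within each group, at 17.6 in both vehicle libraries and 21.9 in both MGH-CP1 libraries. NEU1 works in a complex with the protective protein CTSA, which also rose (0.45), and the NEU1 to CTSA ratio of FPKM was 0.153 and 0.160 after vehicle and 0.161 and 0.162 after MGH-CP1.

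The other 5 glycosidases tested lay close to 0. GLB1, the β-galactosidase that shares the CTSA complex with NEU1, had a log2 fold change of 0.06 (limma adjusted p = 0.37), and its ratio to CTSA was 0.350 and 0.343 after vehicle and 0.260 and 0.268 after MGH-CP1. GUSB, the β-glucuronidase, gave 0.09 and MANBA, the β-mannosidase, 0.09, with MANBA near the lower end of the levels at 1.69 to 1.88 FPKM. GLA, the α-galactosidase deficient in Fabry disease, gave 0.02, with one MGH-CP1 library above both vehicle libraries (27.6 against 24.80 and 25.04 FPKM) and the other below them (23.2 FPKM). GALC, the galactosylceramidase, gave 0.02 with overlapping groups. A further 11 genes are named as copies of GUSB, none with more than 127 fragments in a library against at least 2021 on GUSB. Whether fragments were split between GUSB and these copies was not tested.

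HEXA, a hexosaminidase subunit that acts on ganglioside GM2, was the lowest of the 35, at 0.688 and 1.02 FPKM after vehicle and 0.869 and 0.807 FPKM after MGH-CP1. Its groups overlapped. In the listed coordinates a gene of the same strand, RP11-106M3.2, covers 98.5% of the HEXA span and was given at most 3 fragments, and the part of this overlap in the HEXA value was not tested.

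**Figure D3:**
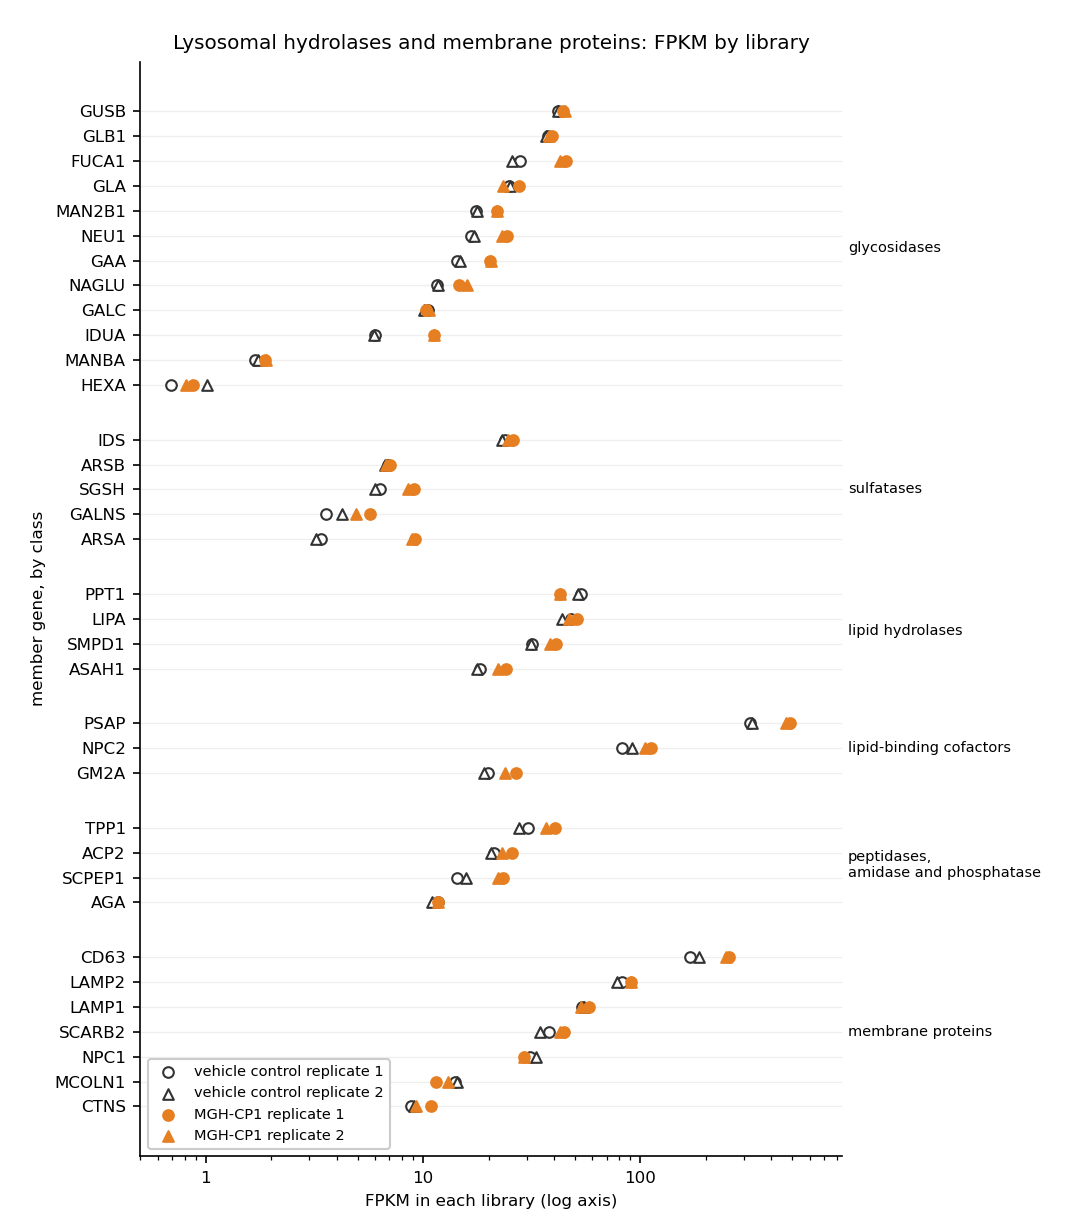
FPKM of the 35 members in each library on a log axis, by class and by vehicle level; open black symbols are vehicle control, filled orange symbols MGH-CP1, circles replicate 1 and triangles replicate 2. PSAP (320 to 490 FPKM) and CD63 (169 to 254 FPKM) are highest, HEXA is lowest, and the widest separation is that of ARSA.

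Sulfatases remove sulfate from glycosaminoglycans and from the myelin lipid sulfatide, and 3 of the 5 members rose, with a median of 0.36. ARSA, the arylsulfatase that desulfates sulfatide, read 3.41 and 3.23 FPKM after vehicle and 9.17 and 8.90 FPKM after MGH-CP1. ARSA thus stood apart from every other member, 2.72 times higher by mean FPKM and 1.22 ± 0.08 on the log2 scale (SE, n = 2 a group; limma adjusted p = 2.66e-05), and only 0.811% of all genes tested had a larger fold change. It was also among the scarcer members, 33rd of 35 by vehicle level, with 169 to 339 fragments in a library. Its listed position is chromosome 22, 51063446 to 51066607 on the minus strand (hg19).

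SGSH, the sulfamidase of heparan sulfate breakdown, read 6.35 and 5.98 FPKM after vehicle and 9.08 and 8.5 FPKM after MGH-CP1, a rise of 0.45. GALNS, which acts on keratan and chondroitin sulfate, read 3.58 and 4.25 FPKM and then 5.68 and 4.94 FPKM. The GALNS groups did not overlap, but the gap between them was no wider than the difference between its MGH-CP1 replicates, and the rise of 0.36 ± 0.10 passed with limma adjusted p = 0.0193 but not in 5 of 14 other settings, among them those without vehicle control replicate 1 or MGH-CP1 replicate 1. IDS, the iduronate sulfatase, and ARSB, which acts on dermatan sulfate, did not pass, at 0.10 and 0.02. SUMF1, which activates every sulfatase by converting a cysteine of the active site, rose by 0.34, from 9.27 and 9.82 FPKM to 13.4 and 11.4 FPKM.

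GM2A, NPC2 and PSAP, soluble lipid-binding proteins grouped here as cofactors, all rose, with a median of 0.35. PSAP encodes the precursor of the saposins, which activate sphingolipid hydrolases, and was the most abundant member. Its FPKM was 320 and 327 after vehicle and 490 and 466 after MGH-CP1, a rise of 0.56 ± 0.05 (SE, n = 2 a group; limma adjusted p = 7.81e-05). The PSAP groups were far apart against the spread within each. PSAP made up 24.6% and 24.8% of the summed FPKM of the members after vehicle and 28.7% and 28.5% after MGH-CP1. GRN, whose product progranulin travels with prosaposin, rose by 0.43. Like PSAP, GRN belongs to the set that the study selected partly on these libraries, so its rise is not independent evidence. SORT1, a sorting receptor for progranulin and prosaposin, did not pass the test at -0.13 (limma adjusted p = 0.058).

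NPC2, the soluble carrier that hands cholesterol to the membrane protein NPC1, read 82.4 and 91.3 FPKM after vehicle and 112 and 105 FPKM after MGH-CP1, a rise of 0.32. NPC1 read 31.0 and 33.2 FPKM and then 29.2 and 29.1 FPKM. The groups did not overlap for either gene, and they lay in opposite orders, although NPC1 did not pass at -0.13 (limma adjusted p = 0.078); it was called lower with limma voom on the recovered fragments (adjusted p = 0.0229) and without vehicle control replicate 1. The ratio of NPC1 to NPC2 was 0.376 and 0.364 after vehicle and 0.260 and 0.277 after MGH-CP1. GM2A, the activator that lifts ganglioside GM2 out of the membrane for its hydrolase, read 20.0 and 19.1 FPKM and then 26.6 and 23.8 FPKM, a rise of 0.35. The span listed for GM2A overlaps CCDC69 on the other strand, which holds up to 154% as many fragments and was also called higher (0.63), and the part of this overlap was not tested.

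Of the 4 genes grouped here as lipid hydrolases, 2 were called higher and 1 lower, with a median of 0.21. The gene called lower was PPT1, a thioesterase that acts on S-acylated proteins, and none of SMPD1, ASAH1 and LIPA was called lower. SMPD1, the acid sphingomyelinase, rose by 0.31, from 31.8 and 31.5 FPKM to 41.0 and 38.3 FPKM. ASAH1, the acid ceramidase that takes the next step from the ceramide made by SMPD1, rose by 0.34, from 18.2 and 17.8 FPKM to 24.2 and 22.1 FPKM. LIPA, the acid lipase of cholesteryl esters and triglycerides, had overlapping groups at 43.40 to 50.99 FPKM and a log2 fold change of 0.10 (limma adjusted p = 0.26). The span listed for LIPA also holds IFIT1, IFIT2 and IFIT3 on the other strand, and IFIT3 had up to 143% as many fragments as LIPA.

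PPT1 showed the largest fall of the 34. PPT1 is the palmitoyl-protein thioesterase that strips fatty acids from S-acylated proteins during their breakdown, and its loss causes infantile neuronal ceroid lipofuscinosis. It read 53.4 and 51.8 FPKM after vehicle and 42.6 and 42.5 FPKM after MGH-CP1, a decrease in which the groups were separated by far more than the replicates. The log2 fold change was -0.30 ± 0.05 (SE, n = 2 a group; limma adjusted p = 0.0014), and each library left out in turn gave values between -0.32 and -0.28. PPT1 lies on chromosome 1 at 40538379 to 40563375 on the minus strand (hg19) as listed.

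Of the peptidases TPP1 and SCPEP1, the amidase AGA and the phosphatase ACP2, 3 rose and AGA did not pass the test, with a median of 0.31. SCPEP1, a serine carboxypeptidase, read 14.4 and 15.7 FPKM after vehicle and 23.3 and 22.1 FPKM after MGH-CP1, a rise of 0.56. TPP1, the tripeptidyl peptidase, read 30.3 and 27.6 FPKM and then 40.6 and 36.9 FPKM, a rise of 0.41. Both had groups that stood apart by more than the spread between replicates. ACP2, the lysosomal acid phosphatase, gave a smaller rise of 0.21 (limma adjusted p = 0.0263), which missed the threshold in 5 of 15 other settings of the analysis. AGA, which splits asparagine from the sugar chain, read 11.0 to 11.7 FPKM throughout, at 0.04. The ACP2 span overlaps NR1H3 on the other strand, which holds up to 39.8% as many fragments and rose by 1.00, and the part of this overlap was not tested.

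The 7 membrane proteins had the lowest class median, 0.15, with 3 called higher and 1 lower; differences between classes were not tested. CD63, a tetraspanin of late endosomes and lysosomes, read 169 and 187 FPKM after vehicle and 254 and 249 FPKM after MGH-CP1, a rise of 0.50 ± 0.06 (SE, n = 2 a group; limma adjusted p = 0.000261). The other abundant membrane proteins moved less. LAMP2 rose by 0.17 ± 0.05 (limma adjusted p = 0.0191), from 82.1 and 78.2 FPKM to 90.17 and 90.25 FPKM, and missed the threshold in 6 of 15 other settings. LAMP1, its close relative in the limiting membrane, read 54.1 and 54.9 FPKM and then 57.8 and 53.4 FPKM, so that its groups overlapped at 0.03. SCARB2, a membrane protein that also carries cargo to lysosomes, rose by 0.26, from 38.1 and 34.6 FPKM to 44.7 and 42.6 FPKM.

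CTNS, the cystine exporter, read 8.81 and 9.06 FPKM after vehicle and 10.9 and 9.25 FPKM after MGH-CP1 and did not pass at 0.15. MCOLN1, the calcium and cation channel of the limiting membrane, was the second member called lower. It read 14.0 and 14.3 FPKM after vehicle and 11.44 and 12.95 FPKM after MGH-CP1, so that the groups did not overlap, but the MGH-CP1 replicates were farther apart than the higher of them was from the vehicle libraries. The log2 fold change was -0.20 ± 0.07 (limma adjusted p = 0.0486), just inside the threshold, and it was not called in 7 of 15 other settings. The neighbour PNPLA6, on the same strand, shares 0.0527% of the listed span of MCOLN1, holds up to 892% as many fragments and rose by 0.34; the part of this overlap was not tested.

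**Figure D4:**
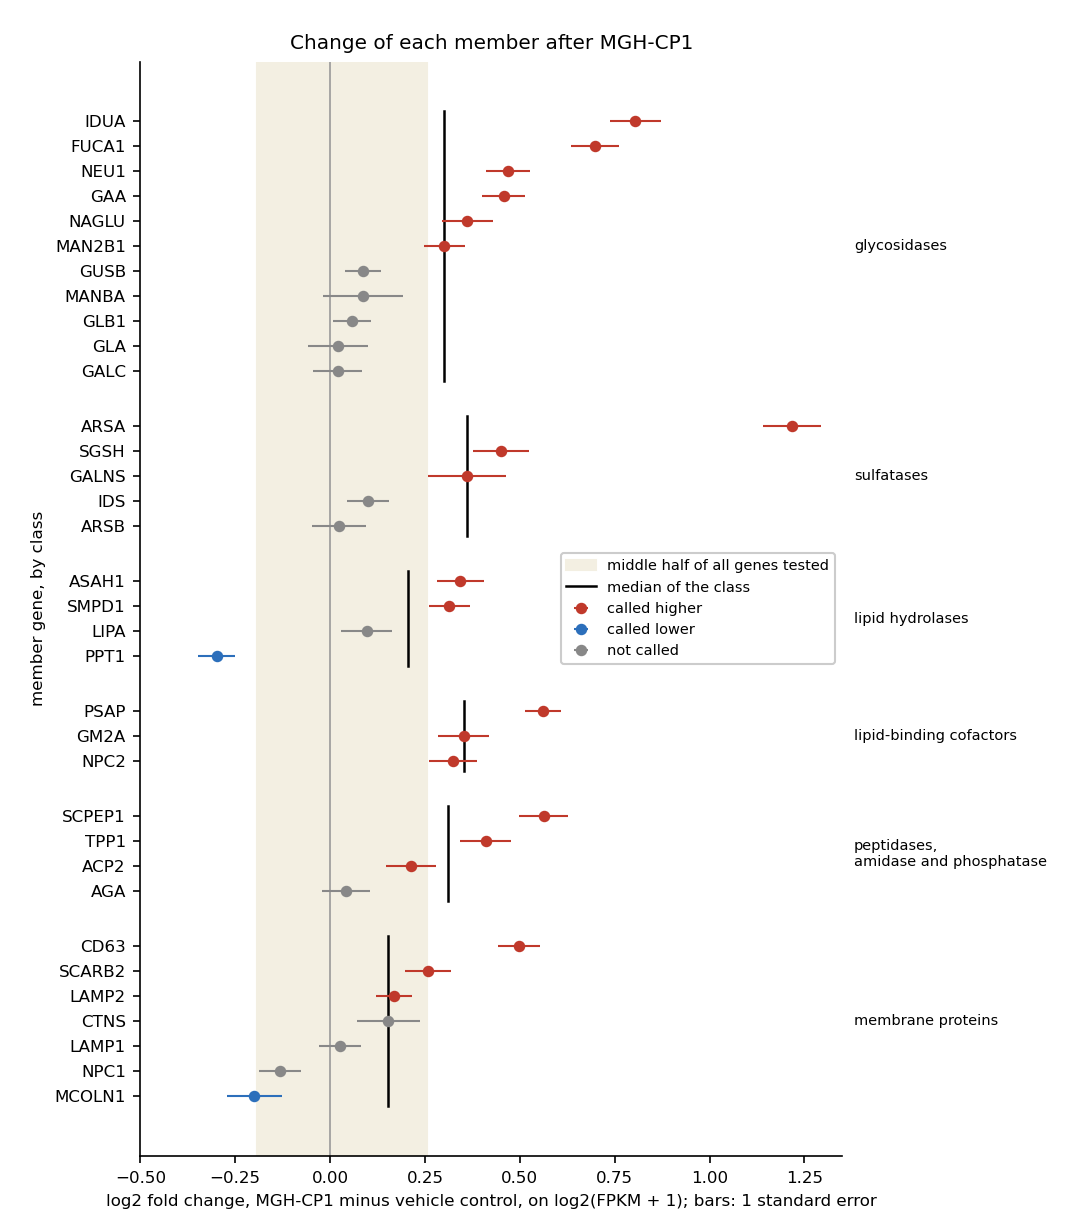
Log2 fold change (MGH-CP1 minus vehicle control) of the 34 members tested, with bars of 1 standard error, by class; red called higher, blue called lower, grey not called, and a black line marks the class median. The shaded band runs from the lower to the upper quartile of all genes tested (-0.19 to 0.25); ARSA at 1.22 lies farthest to the right, and PPT1 and MCOLN1 are the only members called lower.

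Grouped by substrate rather than by chemistry, 5 of the 7 tested genes of sphingolipid breakdown rose (median 0.34), 3 of the 5 of glycoprotein oligosaccharides (median 0.30) and 4 of the 8 of glycosaminoglycans (median 0.23), with none called lower. The 5 were ARSA, PSAP, GM2A, ASAH1 and SMPD1, while GLA and GALC did not pass. As said above, the rises of PSAP and SMPD1 are not independent evidence. Each gene stood in a single group. GLB1, which did not pass, was placed with glycosaminoglycans, and NEU1, which rose, with glycoprotein oligosaccharides, and other placements were not tried. The sphingolipid genes summed to 430 and 435 FPKM after vehicle and 630 and 594 FPKM after MGH-CP1, of which PSAP made up most. For heparan sulfate, IDUA, SGSH and NAGLU rose while IDS and GUSB did not pass.

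Other genes of the same compartment, listed by role, moved in part with the members. Their counts stand beside 27.1% of all genes tested called higher and 23.8% called lower. Of the 17 further lysosomal hydrolases tested that are reported here, which are not the whole list, 8 were called higher, with a median of 0.13. RNASET2, an acid ribonuclease, showed the largest rise, from 3.53 and 4.31 FPKM to 7.59 and 7.72 FPKM (0.82). Of 23 further membrane proteins tested, 11 were called higher and 1 lower, with a median of 0.16. TPCN1, a cation channel of endosomes and lysosomes, read 12.95 and 12.46 FPKM and then 26.8 and 26.1 FPKM, a rise of 1.00 with no overlap. The member of that list called lower was SLC36A1, an exporter of small amino acids, at -0.39.

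Of 14 genes of enzyme maturation and delivery, 6 were called higher (42.9%) and 1 lower (7.14%), with a median of 0.12. The shares over all genes tested were 27.1% and 23.8%. CTSA showed the largest rise, from 108 and 107 FPKM to 151 and 142 FPKM (0.45), and CLN6, an endoplasmic reticulum protein needed for the export of lysosomal enzymes, the fall, from 17.7 and 19.0 FPKM to 11.1 and 10.7 FPKM (-0.70). The groups of both genes were far apart. On the mannose 6-phosphate route, the receptors M6PR and IGF2R did not pass the test, at -0.13 and 0.08. GNPTAB, a subunit of the enzyme that makes the tag, did not pass either, at -0.11. GNPTG, another subunit of that enzyme, was called higher at 0.43. Of the GGA genes in this list, GGA1 and GGA3 were called higher at 0.29 and 0.27, and GGA2 did not pass at 0.13.

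Of the 20 tested genes listed as MiT/TFE factors and their lysosomal regulators, 10 were called higher (50%) and 3 lower (15%), with a median of 0.21. The shares over all genes tested were 27.1% and 23.8%. TFEB read 4.53 and 3.93 FPKM after vehicle and 7.97 and 7.12 FPKM after MGH-CP1, a rise of 0.71 ± 0.09 (limma adjusted p = 0.000485). Its paralog TFE3, at 47.8 to 58.5 FPKM, rose by 0.23, and MITF fell by 0.25. MTOR, the kinase that holds the MiT/TFE factors in the cytosol, read 15.0 and 14.3 FPKM and then 9.51 and 10.5 FPKM, a fall of 0.51 on the log2 scale. RHEB, the small GTPase that activates it, also fell (-0.22). Of the 5 LAMTOR subunits, which tether the kinase to the lysosome, LAMTOR2, LAMTOR4 and LAMTOR5 rose and LAMTOR1 and LAMTOR3 did not pass. Also called higher were RRAGA (0.41), RRAGB (0.39), ZKSCAN3 (0.37), TSC2 (0.34) and TSC1 (0.23). FNIP1, FNIP2, RRAGC, RRAGD and RPTOR did not pass. These are levels of RNA, and where the factors were in the cell was not measured.

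**Figure D5:**
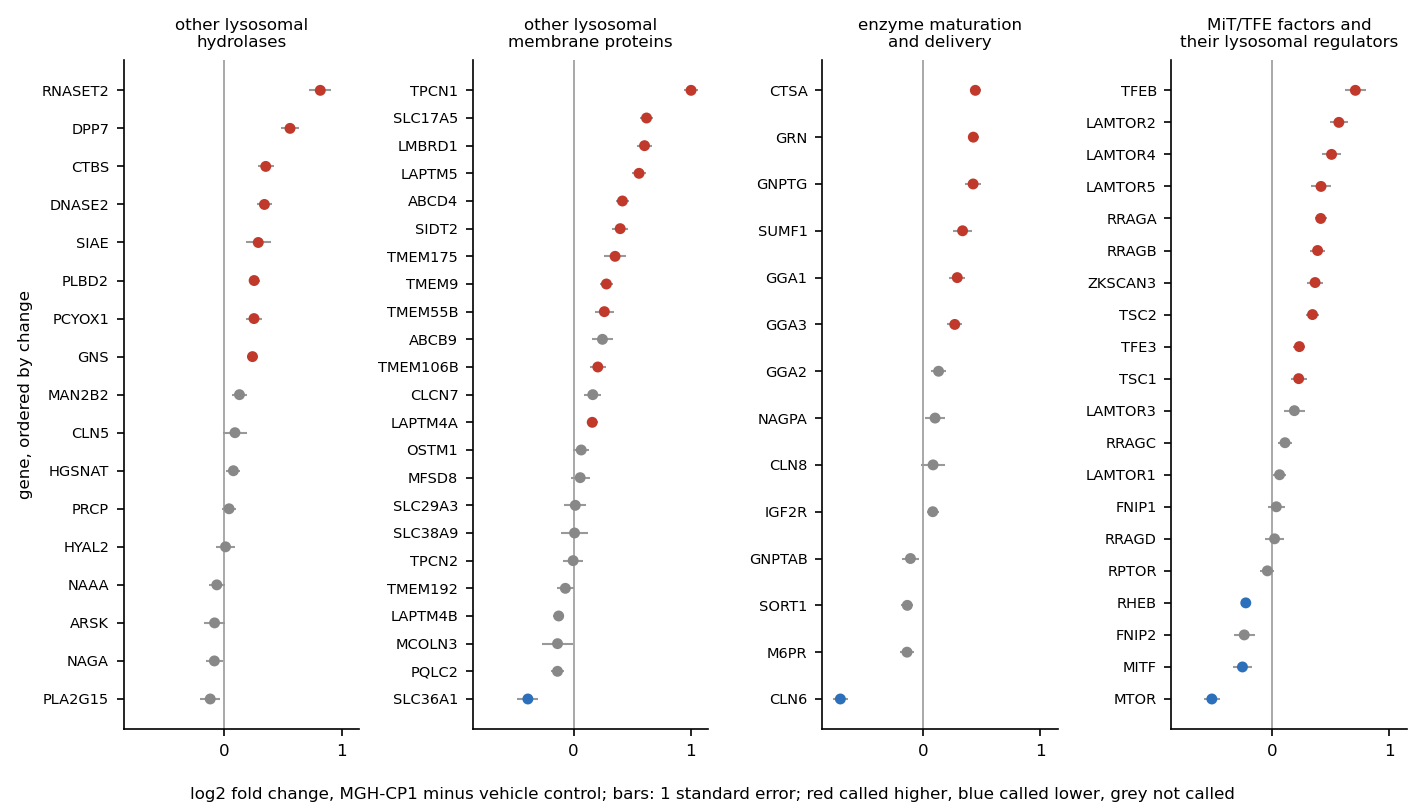
Log2 fold change (MGH-CP1 minus vehicle control) with bars of 1 standard error for the tested genes of 4 lists that hold no member: other lysosomal hydrolases (17), other lysosomal membrane proteins (23), enzyme maturation and delivery (14) and MiT/TFE factors with their lysosomal regulators (20). Red is called higher, blue called lower and grey not called; RNASET2, TPCN1, CTSA and TFEB lead the lists, and SLC36A1, CLN6 and MTOR stand at the lower ends of the last 3.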

How the data were processed

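Poly(A)-selected RNA from 2 vehicle control and 2 MGH-CP1 samples of MDA-MB-231 cells was sequenced as paired-end reads. The authors deposited FPKM values per gene, computed on each library's own fragment total with no further scaling; the submitters' notes name CASAVA 1.8, STAR and hg19, and the counting tool and its use of strand are not given in the sources used here. FPKM times gene length divided by 1000 was a whole multiple of a single step for 100% of values (tolerance 0.01 fragments), which gave the fragment totals quoted. Columns were matched to samples by condition and replicate number.

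From these values log2(FPKM + 1) was fitted in limma 3.58.1 (R 4.3.3; empirical Bayes with a variance trend) on the 4 libraries, for the 12080 genes with mean FPKM of at least 1, and p-values were adjusted over all of them by the Benjamini-Hochberg method; called means adjusted p under 0.05. The fit was also run on simulated data with few changed genes, each set to a larger change than most members showed. That run does not bear on the smaller calls. Alternatives changed the pseudocount, filter, scaling, variance model and gene length treatment, added the replicate number, or left out each library; limma voom on the recovered fragments called 3323 genes higher and 3290 lower. Genes named are all members; from each of the 4 lists of related genes, the called gene with the largest rise and the largest fall; a set of partners (CTSA, SUMF1, GRN, GNPTAB, M6PR, IGF2R, SORT1, TFEB, TFE3, MITF); and CYR61, CTGF and ANKRD1. GNPTG, RHEB, ZKSCAN3, RPTOR, the LAMTOR, RRAG, FNIP, TSC and GGA genes, marker genes and overlapping genes were named after their values were seen. Members, lists and tests were chosen with earlier results of these data known. CLN3 and FLCN, which have 2 entries each, were left out of the lists of related genes, and 2 others are not reported here. Fragments that overlapping genes share cannot be assigned without strand. Promoter sequences came from RefSeq (GRCh38.p14), and coordinates from the table are hg19 and were not converted.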

Additional observations from a re-analysis of the deposited data

How the results depend on the processing

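The members called higher numbered 15 to 21, and the median log2 fold change of the members tested was 0.25 to 0.30, in the 14 alternatives other than the per-gene test without shared variance. That test, with 2 libraries a group, called 9 genes higher and 4 lower in all, and among the members 2 higher (IDUA and MAN2B1) and 0 lower, while 18 members and 4947 genes had an unadjusted p under 0.05. All 22 called members kept their direction in the 15 alternatives, and 16 also kept their call in the 14. Without a filter on low values, 1844 genes and 1 member were called lower and 15 members higher, with ACP2, GALNS, LAMP2, NPC2, SCARB2 and MCOLN1 lost; 1 member was called lower also with totals that exclude mitochondrial genes and with no variance trend, MCOLN1 being lost each time. Leaving out each library gave 16 to 20 members called higher and 1 to 2 lower; the lowest counts came without MGH-CP1 replicate 1, when ACP2, GALNS, LAMP2, SCARB2 and MCOLN1 were lost. ACP2, LAMP2 and MCOLN1 were lost without vehicle control replicate 2, GALNS and MCOLN1 without vehicle control replicate 1, and LAMP2 without MGH-CP1 replicate 2. With each library left out, the cofactor median ranged from 0.28 to 0.43 and the membrane protein median from 0.045 (without MGH-CP1 replicate 1) to 0.17. The sulfatase median ranged from 0.26 (without vehicle control replicate 1) to 0.45 (without MGH-CP1 replicate 2). Lipid hydrolases ranged from 0.15 to 0.26, and the class of peptidases, amidase and phosphatase from 0.24 to 0.38. The glycosidase median was 0.31 with a pseudocount of 0.1, 0.19 without a filter, 0.33 at a mean FPKM of at least 5, 0.29 with median-ratio scaling, 0.31 with quantile normalization, 0.32 without mitochondrial genes and 0.31 with a length trend removed. Members that were not called changed sign in places: ARSB (-0.026) and MANBA (-0.048) with quantile normalization, GLA (-0.060) with the length trend removed, and, with libraries left out, GLA between -0.10 and 0.14, LAMP1 between -0.031 and 0.082 and GALC between -0.0048 and 0.044; the cause was not tested. Calls were gained for NPC1 (lower) with voom on recovered fragments, which called 3 members lower, and without vehicle control replicate 1, for IDS (higher) with the length trend removed and for CTNS (higher) without MGH-CP1 replicate 2. The replicate block, with replicate numbers that only name the libraries (correlation of their deviations between groups 0.078), called 20 members higher and 2 lower and, over all genes, 3466 higher and 3052 lower. Scaling moved the median of all genes by at most 0.041. At mean FPKM 1 a gene of 1000 bases holds about 18 to 26 fragments.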

Other observations

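In the listed coordinates, 9 of the 35 members overlap a gene that holds at least 10% as many fragments. Of the 9, 7 are called members, beside 22 of the 34 members tested. Over all genes tested, 27.1% were called higher and 23.8% lower. The overlapping genes were looked at after their values were seen. The neighbours on the other strand differed in their own change. NR1H3, which encodes the oxysterol receptor LXRα and overlaps ACP2, rose by 1.00, SLC26A11 beside SGSH by 0.71 and CCDC69 beside GM2A by 0.63. IFIT1, IFIT2 and IFIT3, interferon-induced genes within the listed span of LIPA, rose by 0.39, 0.38 and 0.17, whereas LIPA did not pass the test. SLC26A1, TRAPPC2L, ISCA2 and C18orf8, which overlap IDUA, GALNS, NPC2 and NPC1, were not called, at 0.13, 0.20, 0.22 and -0.11. TMPPE, on the strand of GLB1 and within its span, was called lower at -0.38 with 85 to 240 fragments a library.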
